A study of Mus musculus with 14 samples.

Results

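The genes described here are the cyclooxygenases *Ptgs1* and *Ptgs2*, the prostaglandin E synthases *Ptges*, *Ptges2* and *Ptges3*, the prostacyclin synthase *Ptgis* and the prostaglandin E receptors *Ptger1*, *Ptger2*, *Ptger3* and *Ptger4*. They were chosen by name as the core of prostaglandin synthesis and reception, and all 10 were found among the 39179 genes of the differentiation table and the 35886 genes of the sorted libraries. The cells were Ocy454, a mouse line used as a model of osteocytes. A heat-labile viral large T antigen drives their growth in culture at 33 °C, and differentiation starts with the move to 37 °C. In the first experiment, RNA-sequencing was done on cells kept at 37 °C for 1 day, 7 days, 10 days and 14 days, with 2 biological replicates at each time. In the second, cells held for 17 days at 37 °C were dissociated with trypsin and labeled for CD61, the integrin β3 protein encoded by *Itgb3*. They were sorted into the lowest 10% (CD61low) and the highest 10% (CD61high), with 3 replicates of each. The methods name 3 independent groups of cells at the start of the sort, so CD61low and CD61high replicates may share a group. The labels name no treatment or altered gene beyond these, and every group was a mixture of cells of this 1 line.

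Prostaglandins are lipid signals made in steps. Phospholipases free arachidonic acid from membranes, a cyclooxygenase turns it into the unstable intermediate PGH2, and a terminal synthase turns PGH2 into PGE2, prostacyclin or another product. PGE2 acts through the receptors EP1 to EP4, encoded by *Ptger1* to *Ptger4*. In bone, osteocytes release PGE2 and prostacyclin when they are loaded mechanically, *Ptgs2* is the inducible cyclooxygenase of that response, and EP4 signaling through cAMP is linked to bone formation.

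The differentiation libraries held 27518605 to 34311238 counted reads and the sorted libraries 18815602 to 19220064. *Itgb3* checked the labels: it was at 10.3 and 10.9 CPM (the gene's reads scaled to a fixed library total) on day 1 and at 56.9 and 57.6 CPM on day 14, and at 5.31 to 6.10 CPM in CD61low cells and 100.1 to 130 CPM in CD61high cells. The study chose *Itgb3* partly for its rise from day 1 to day 14 in these libraries, so that rise is not an independent check. Of 10 osteoblast and osteocyte markers, 6 of the 8 tested were called higher on day 14 than on day 1 (*Phex*, *Dmp1*, *Sost*, *Bglap*, *Sp7* and *Alpl*) and 7 of 8 in CD61high cells, led by *Dmp1*, *Bglap* and *Phex* and with *Sp7*, *Col1a1* and *Sost* the lowest of the 7. *Sost* (0 CPM on day 1) and *Bglap* (0.827 and 0.533 CPM on day 1) passed the filter through later days alone, so their day 14 calls do not count as support. Only 4 of the 10 markers had a mean above 1 CPM on day 1, *Col1a1*, *Alpl* and *Pdpn* among them, so not all of *Phex*, *Dmp1* and *Sp7* did. The day 14 calls of *Phex*, *Dmp1* and *Sp7* are thus not counted as support either. *Pdpn* went the other way, with means of 28.2 CPM on day 1, 19.3 CPM on day 14, 15.5 CPM in CD61low and 11.1 CPM in CD61high cells, and *Col1a1* had means of 34709 CPM on day 1 and 25242 CPM on day 14. *Fgf23* was at 0 in the 8 differentiation libraries. Of 10 macrophage markers, *C1qa*, *C1qb* and *Adgre1* were at 0 in all 14 libraries and *Cd68* and *Cd14* were above 1 CPM, and endothelial and adipocyte markers each summed to at most 0.861 CPM in any library. A gene is called here where its adjusted p was below 0.01 and its Log2FC was above 1 or below -1, and "rose" and "fell" are kept for such genes. A change in the number of cells that express a gene and a change in its RNA per cell cannot be told apart in these bulk libraries.

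The promoters of the 3 genes that were called higher on day 14 and have an entry in the RefSeq promoter table (GRCm38.p6) are shown here, *Ptges* among them although it entered the test through its high days alone, as the 250 bases before each annotated start, 5′ to 3′ on the gene's strand, with capitals marking GGGCGG (the GC box) and GCGTG (a core of the hypoxia response element) on either strand (CCGCCC is GGGCGG on the other strand). *Ptgs2* lies on the plus strand (chr1:150099781-150100030), *Ptges* on the minus strand (chr2:30903298-30903547) and *Ptger4* on the minus strand (chr15:5244188-5244437).
Ptgs2: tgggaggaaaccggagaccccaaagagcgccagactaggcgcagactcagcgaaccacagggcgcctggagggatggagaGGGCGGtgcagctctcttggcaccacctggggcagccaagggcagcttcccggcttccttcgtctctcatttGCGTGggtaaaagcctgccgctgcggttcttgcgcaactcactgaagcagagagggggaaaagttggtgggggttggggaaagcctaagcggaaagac
Ptges: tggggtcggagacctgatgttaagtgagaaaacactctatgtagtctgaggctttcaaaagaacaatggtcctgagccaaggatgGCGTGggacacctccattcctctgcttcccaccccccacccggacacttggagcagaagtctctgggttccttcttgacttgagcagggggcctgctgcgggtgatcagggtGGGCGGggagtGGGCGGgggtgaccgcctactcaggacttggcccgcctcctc
Ptger4: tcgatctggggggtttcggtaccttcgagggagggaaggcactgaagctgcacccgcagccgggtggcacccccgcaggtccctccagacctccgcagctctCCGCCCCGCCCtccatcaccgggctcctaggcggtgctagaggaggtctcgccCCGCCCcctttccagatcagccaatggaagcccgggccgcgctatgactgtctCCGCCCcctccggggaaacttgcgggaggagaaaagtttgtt

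All 3 windows held GGGCGG, which was found in 5 of the 8 genes with an entry and in 32.7% of 32851 promoters. GCGTG was also found in 5 of the 8 (*Ptgs2*, *Ptges*, *Ptges2*, *Ptges3* and *Ptger3*), and in 28.2% of all promoters. TATAAA (the TATA box), TGACGTCA (the cAMP response element), TGACG (its short form), TGANTCA (the AP-1 site) and the CArG box of serum response factor were in none of the 8 windows, and they were in 12.4%, 1.55%, 17.8%, 6.75% and 1.47% of all promoters. CACGTG (the E-box), in 6.02% of all promoters, and the ACGTG inside it, in 16.6%, were in the window of *Ptges2*, ACGTG alone in that of *Ptger3* and a kappaB site, in 7.25% of all promoters, in that of *Ptges3*. These are matches of letters on both strands, not sites of binding. In *Ptgs2* a TGACG and a CACGTG lay just past the annotated start, at bases 14 to 18 and 17 to 22 counted from the start, and they share 2 bases. They are shown in capitals in bases 8 to 29 (chr1:150100038-150100059, GRCm38.p6), where the TGACG reads as CGTCA since it is on the other strand.
Ptgs2 past the start: ccactaCGTCACGTGgagtccg

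*Ptges3*, which was not called, also held a TGACG past its start, at bases 12 to 16. Over all 300 bases of the window, TGACG was in 20.8% and CACGTG in 7.15% of promoters.

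The first comparison follows the 10 genes over 14 days at 37 °C. On day 14 against day 1, 4 of the 10 genes were called higher and none lower: *Ptgis*, *Ptgs2*, *Ptger4* and *Ptges*. *Ptges* passed the filter through the days on which it was high alone, and on this scale its call did not hold when 1 library was left out, so it does not count as support. Of all 12725 genes tested, 7.51% were called higher and 5.90% lower in this comparison. Among markers of another skeletal cell type, 2 of 6 chondrocyte markers were called lower on day 14. These were *Matn3* (8.12 to 0.495 CPM) and *Comp* (4.68 to 1.43 CPM). The means of *Acan* (60.0 to 84.0 CPM), *Sox9* (18.5 to 25.3 CPM), *Col9a1* (0.166 to 1.03 CPM) and *Col2a1* (1.68 to 1.89 CPM) went up, and none was called higher. The median Log2FC of the 6 markers was 0.26. Their part in the results was not tested. *Ptgs1*, *Ptges2*, *Ptges3* and *Ptger1* were tested and not called, and *Ptger2* and *Ptger3* were below the filter of more than 1 CPM in at least 1 library. The median Log2FC of the 8 tested genes was 0.68, and that of all genes was -0.028. Without *Ptges* the median of the others is the Log2FC of *Ptgs1*, 0.29. The 2 libraries of day 14 did not overlap those of day 1 in any of the 8 genes, nor in 87.1% of all genes. On days 7 and 10 against day 1, 5 and 7 of the 8 genes did not overlap, beside 83.7% and 86.4% of all genes.

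**Figure D1:**
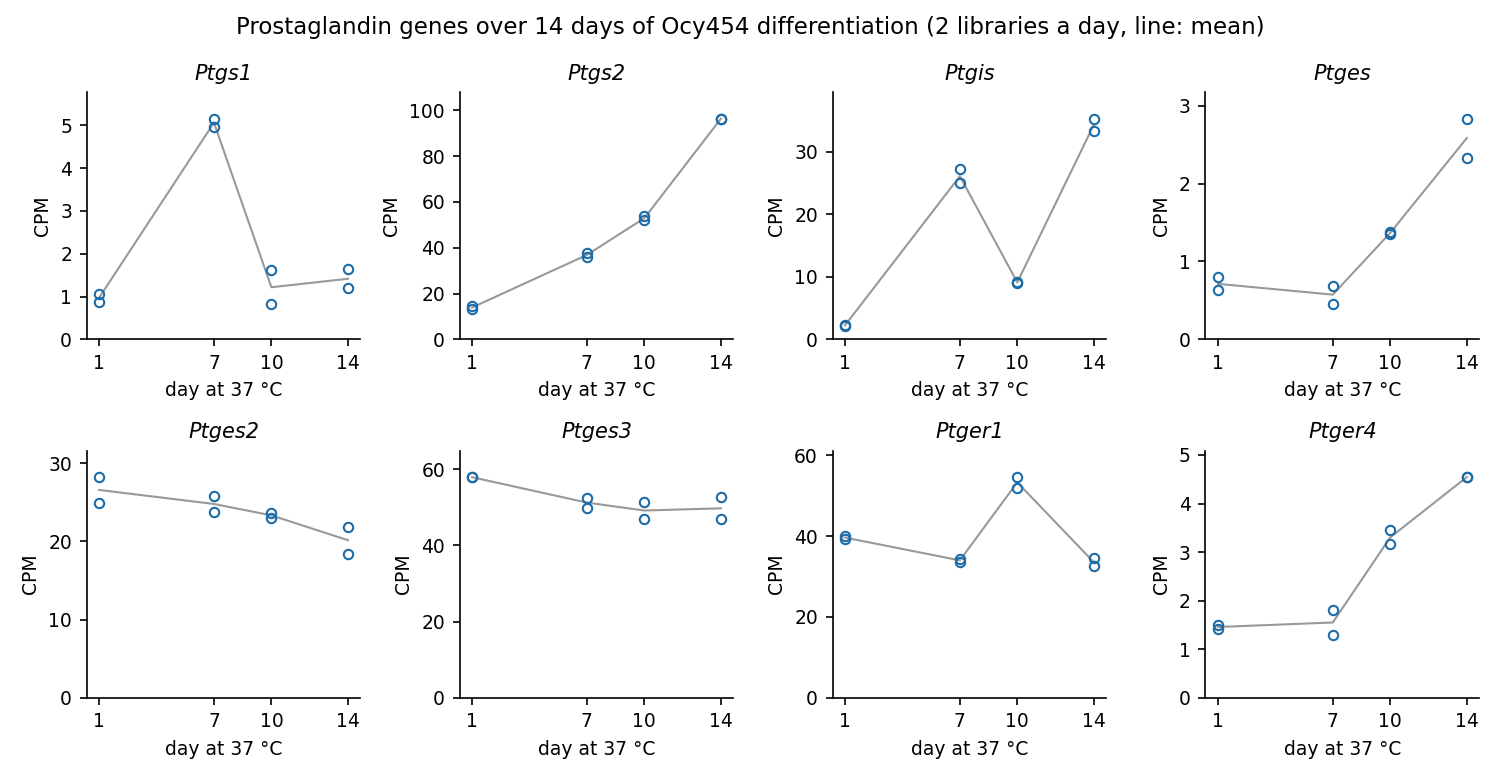
CPM (linear axes from 0) of the 8 detected prostaglandin genes against day at 37 °C; each circle is 1 of 2 libraries a day and the line joins the means. *Ptgs2* climbs at every step to 96.2 and 96.4 CPM, *Ptgis* has 2 peaks, *Ptgs1* has 1 peak on day 7, and *Ptges2* and *Ptges3* stay within 18.4 to 28.2 CPM and 46.8 to 57.9 CPM.

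*Ptgs2* (ENSMUSG00000032487, chr1:149975194-149983978, plus strand, GRCm39) encodes the inducible cyclooxygenase COX-2. Its 2 libraries were at 14.6 and 13.2 CPM on day 1, at 37.6 and 36.2 CPM on day 7, at 52.1 and 53.7 CPM on day 10 and at 96.2 and 96.4 CPM on day 14. Both libraries of each day stood above both of the day before, a pattern shared by 509 of 12725 genes (4.0%). The mean on day 14 was 6.94 times that on day 1. On the log2(CPM + 1) scale of the test, the Log2FC against day 1 was 1.35 (SE 0.06) on day 7, 1.86 (SE 0.06) on day 10 and 2.71 (SE 0.06, limma adjusted p = 5.5e-24) on day 14. The later steps were past the adjusted p but not past the fold: 0.51 from day 7 to day 10 and 0.85 from day 10 to day 14, where 48.7% and 52.8% of all genes were past the adjusted p.

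*Ptgs2* is itself an immediate early gene, and some other immediate early and stress genes were called over the same days, not all in the same direction. Their summed level went from 207 to 219 CPM on day 1 to 514 to 527 CPM on day 14, and 6 of 11 tested were called higher then (*Egr1*, *Fosb*, *Atf3*, *Fos*, *Ier3* and *Ier2*). *Jun* was called lower on day 7 against day 1 (Log2FC -1.20), while *Ier3* and *Atf3* were called higher, and *Zfp36* had a Log2FC of -0.35 on day 14. *Egr1* was at 25.9 and 24.8 CPM on day 1 and at 200.3 and 186 CPM on day 14, with a Log2FC of 2.88. *Fos* reached 9.24 and 8.98 CPM on day 14, from 2.63 and 2.45 CPM. The part of this group in the rise of *Ptgs2* was not tested.

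*Ptgs1* (ENSMUSG00000047250, chr2:36120438-36142287, plus strand, GRCm39) encodes the constitutive cyclooxygenase COX-1, and it followed another course. It was at 1.06 and 0.878 CPM on day 1 (36 and 28 reads), at 5.16 and 4.96 CPM on day 7 (172 and 141 reads), at 0.821 and 1.61 CPM on day 10 and at 1.19 and 1.64 CPM on day 14. Day 7 was the high point, at 5.22 times the day 1 mean, and the libraries of the other days lay between 0.821 and 1.64 CPM. *Ptgs1* rose from day 1 to day 7 (Log2FC 1.62, SE 0.16, limma adjusted p = 1.0e-09) and fell from day 7 to day 10 (Log2FC -1.47, SE 0.16, limma adjusted p = 1.2e-08). Between day 14 and day 1 its Log2FC was 0.29 (SE 0.16, limma adjusted p = 0.096).

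Set against each other per kilobase of listed gene length, *Ptgs2* was 12.9 and 14.1 times *Ptgs1* in the 2 libraries of day 1 and 6.84 and 6.85 times on day 7. The ratio was 59.7 and 31.3 on day 10 and 75.7 and 55.4 on day 14. *Ptgs2* made up 87.3% of the summed cyclooxygenase level in both libraries of day 7 and 98.2% to 98.7% on day 14.

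*Ptgis* (ENSMUSG00000017969, chr2:167033725-167083018, minus strand, GRCm39) encodes the cytochrome P450 enzyme that makes prostacyclin from PGH2. It was at 2.30 and 2.16 CPM on day 1, at 27.3 and 24.96 CPM on day 7, at 8.996 and 9.25 CPM on day 10 and at 33.4 and 35.4 CPM on day 14. Days 7 and 14 were high, day 10 lay between, and no 2 days overlapped. *Ptgis* rose to day 7 (Log2FC 3.07, SE 0.09), fell to day 10 (Log2FC -1.42, SE 0.09) and rose again to day 14 (Log2FC 1.80, SE 0.09). Against day 1 the Log2FC on day 14 was 3.45 (SE 0.09, limma adjusted p = 2.8e-22), a mean 15.4 times higher. The sequence of a call up, a call down and a call up was met by 33 of 12725 genes (0.259%), and the first 2 of these steps were met by 52 genes (0.409%), *Ptgs1* among them.

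The steps from day 7 to day 10 and from day 10 to day 14 called few genes, 282 and 377 of 12725. From day 7 to day 10, *Ptgis* and *Ptgs1* were called lower beside 0.786% of all genes, and none of the 10 genes was called higher beside 1.43%. With a pseudocount of 0.1, *Ptges* and *Ptger4* were called higher at this step, and 377 of all genes were (182 as reported). From day 10 to day 14, *Ptgis* was called higher beside 2.09% of all genes, and none was called lower beside 0.872%. The groups did not overlap in 7 and 6 of the 8 tested genes at these 2 steps, as in 79.8% and 80.0% of all genes. From day 1 to day 7, *Ptgis*, *Ptgs1* and *Ptgs2* were called higher beside 4.49% of all genes and none lower beside 4.62%. From day 1 to day 10, *Ptgs2* and *Ptgis* were called higher beside 6.06% and none lower beside 4.42%.

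*Ptges* (ENSMUSG00000050737, chr2:30779483-30820196, minus strand, GRCm39) encodes the microsomal PGE synthase, the inducible enzyme that is commonly coupled to COX-2. It was scarce: 0.797 and 0.627 CPM on day 1, 0.690 and 0.458 CPM on day 7, 1.38 and 1.35 CPM on day 10 and 2.33 and 2.83 CPM on day 14. The libraries of day 1 and day 7 overlapped, and those of day 10 and day 14 stood above them. *Ptges* was above 1 CPM on days 10 and 14 only, so it entered the test through the days on which it was high. On day 14 its mean was 3.63 times that of day 1, from 80 and 78 reads against 27 and 20, with a Log2FC of 1.06 (SE 0.15, limma adjusted p = 3.7e-07). On the log2(CPM + 1) scale this lay close to the fold limit: the Log2FC was 0.99 without replicate 2 of day 1 and 0.96 without replicate 2 of day 14, and the gene was then not called. With a pseudocount of 0.1 the Log2FC was 1.73, and with edgeR on the recovered reads it was 1.87, both called.

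*Ptges2* (ENSMUSG00000026820, chr2:32285659-32295786, plus strand, GRCm39) encodes a membrane-associated PGE synthase. Its libraries went from 28.2 and 24.9 CPM on day 1 to 18.4 and 21.9 CPM on day 14, with a Log2FC of -0.38 (SE 0.08, limma adjusted p = 1.2e-04). *Ptges3* (ENSMUSG00000071072, chr10:127894816-127913141, plus strand, GRCm39) encodes the cytosolic PGE synthase, also known as the HSP90 co-chaperone p23. It was at 57.8 and 57.9 CPM on day 1 and at 46.8 and 52.6 CPM on day 14, with a Log2FC of -0.22 (SE 0.06, limma adjusted p = 0.0014). Both differences were past the adjusted p, as for 68.6% of all genes in this comparison, and short of the fold. Of 10 genes of the HSP90 machine in which p23 works (HSP90 itself, its co-chaperones, *Hspa8* and *Hsf1*), none was called in any of the 6 comparisons, and their median Log2FC on day 14 was -0.31.

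*Ptger4* (ENSMUSG00000039942, chr15:5236142-5273673, minus strand, GRCm39) encodes EP4, a receptor that raises cAMP. It was at 1.51 and 1.41 CPM on day 1, at 1.80 and 1.302 CPM on day 7, at 3.45 and 3.16 CPM on day 10 and at 4.55 and 4.54 CPM on day 14. Days 1 and 7 overlapped, and days 10 and 14 were each above the days before them. On day 14 the mean was 3.12 times that of day 1, with a Log2FC of 1.17 (SE 0.13, limma adjusted p = 1.1e-08). On day 10 against day 1 the Log2FC was 0.81 (SE 0.13). The macrophage marker *Cd68* was called higher on day 10 against day 1 (Log2FC 1.08) and against day 7 (Log2FC 1.07), with means of 1.66, 1.68, 4.64 and 3.34 CPM on days 1, 7, 10 and 14, and *Cd14* had means of 5.14, 3.12, 6.08 and 2.86 CPM. The 10 macrophage markers summed to 4.77 to 11.9 CPM in the differentiation libraries, and their part in the level of *Ptger4* was not tested. The study picked *Ptger4* as a candidate surface marker from these day 1 and day 14 libraries together with another culture system, so its rise here is not independent of that choice. The paper reports that by flow cytometry the antibody against its protein labeled only a small share of differentiated Ocy454 cells, and it used CD61 instead.

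*Ptger1* (ENSMUSG00000019464, chr8:84393264-84399384, plus strand, GRCm39) encodes EP1, a receptor that acts through calcium. It was at 40.0 and 39.3 CPM on day 1, at 33.6 and 34.4 CPM on day 7, at 54.6 and 52.0 CPM on day 10 and at 34.5 and 32.6 CPM on day 14. Day 10 was the highest, and the step down to day 14 had a Log2FC of -0.65 (SE 0.06), short of the fold. The strand setting of the counting is not given in the sources used here. Reads of *Ptger1*, *Ptgs2*, *Ptger4* and some of the other genes may thus be mixed with those of genes on the opposite strand, which was not tested.

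*Ptger2* (ENSMUSG00000037759, chr14:45225652-45241277, plus strand, GRCm39) encodes EP2, the other cAMP-raising receptor. It had 1 read in 1 library of day 10 and 4 reads in 1 library of day 14, and none in the other 12 libraries of both experiments. *Ptger3* (ENSMUSG00000040016, chr3:157272492-157352099, plus strand, GRCm39) encodes EP3, a receptor that lowers cAMP, and it had no read in any of the 14 libraries. A count of 0 over the summed libraries of a day allows up to 3 reads, or 0.0456 to 0.0488 CPM, and over those of a sorted group up to 0.0523 to 0.0527 CPM. Such limits cover counting error only.

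The second comparison asks which of these genes differ between cells with high and low surface CD61 after 17 days at 37 °C. In CD61high cells 2 of the 10 genes rose and none fell: *Ptgis* and *Ptgs1*. Of the 12077 genes tested here, 4.84% were called higher and 4.37% lower. *Ptgs2*, *Ptger4* and *Ptges3* were past the adjusted p only, as were 35.4% of all genes counted with those past the fold, and *Ptges*, *Ptges2* and *Ptger1* were past neither. *Ptger2* and *Ptger3* had no read. The median Log2FC of the 8 tested genes was -0.28, and that of all genes was 0.0035. Markers of another skeletal cell type moved with the sort: 3 of 4 tested chondrocyte markers (*Col2a1*, *Comp* and *Sox9*) were called higher in CD61high cells, and the 6 such markers summed to 39.5 to 48.8 CPM in CD61low and 101 to 118 CPM in CD61high cells. Their part in the results was not tested. Levels in this comparison are CPM scaled by the trimmed mean of M-values (TMM).

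**Figure D2:**
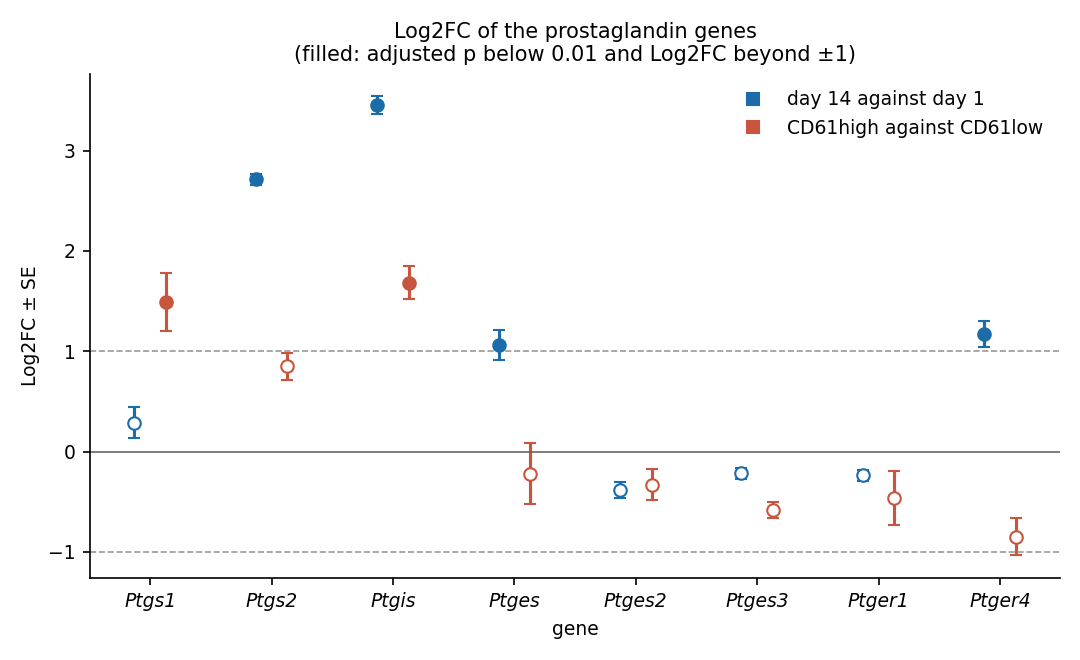
Log2FC with its SE for the 8 tested genes on day 14 against day 1 (blue, limma on log2(CPM + 1)) and in CD61high against CD61low cells (red, edgeR); filled circles are called, dashed lines mark 1 and -1. *Ptgis* is filled in both, *Ptgs2* is above 0 in both and filled on day 14 only, and *Ptger4* is at 1.17 on day 14 and at -0.85 in the sort.

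*Ptgis* was at 5.74, 3.85 and 4.54 CPM in CD61low cells and at 16.5, 13.1 and 15.8 CPM in CD61high cells. The groups did not overlap, as for 58.0% of all genes, and the mean was 3.22 times higher in CD61high cells (Log2FC 1.68, SE 0.17, edgeR adjusted p = 2.1e-05). Salmon split the estimated counts of *Ptgis* between 2 protein-coding transcripts. The share of transcript *Ptgis-202* was 52.1%, 38.5% and 33.5% in the CD61low libraries and 66.8%, 60.6% and 59.5% in the CD61high libraries, from 82 to 120 counts and 228 to 281 counts of the gene. Nearly all of the rest was *Ptgis-201*. These shares are model estimates without a test.

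*Ptgs1* was at 0.574, 0.563 and 0.635 CPM in CD61low cells and at 1.35, 1.90 and 1.76 CPM in CD61high cells. The groups did not overlap, but the counts were low, 12 to 13 in the CD61low libraries and 23 to 33 in the CD61high libraries. The Log2FC was 1.49 (SE 0.29, edgeR adjusted p = 0.0018). With an offset for the transcript length that Salmon estimated in each library, the adjusted p was 0.028 and *Ptgs1* was not called. The Log2FC was 1.19 or more under each of 14 alternatives, this one included, so it stayed past the fold.

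*Ptgs2* was at 35.3, 31.2 and 36.2 CPM in CD61low cells and at 76.4, 51.3 and 57.6 CPM in CD61high cells. The 3 CD61high libraries were all above the CD61low ones, and replicate 1 was the highest. The Log2FC was 0.85 (SE 0.14, edgeR adjusted p = 4.8e-04), short of the fold, and it was 0.67 without replicate 1 of the CD61high cells. That library was also the highest in *Fos* (635 CPM against 367 and 370 CPM in the other CD61high libraries), in *Fosb* and in *Egr1*. The 12 immediate early and stress genes summed to 1651 to 1928 CPM in CD61low cells and 2604 to 3193 CPM in CD61high cells; of 11 tested, *Fos*, *Fosb* and *Ier3* rose and *Atf3* fell. Their part in the level of *Ptgs2*, in cells that had been dissociated and sorted, was not tested. The ratio of *Ptgs2* to *Ptgs1* per length is not given for the sorted libraries, since Salmon spread the few counts of *Ptgs1* over 5 transcripts of 573 to 2867 bases and gave the coding *Ptgs1-201* 0 counts in replicate 3 of the CD61low and replicate 1 of the CD61high cells.

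**Figure D3:**
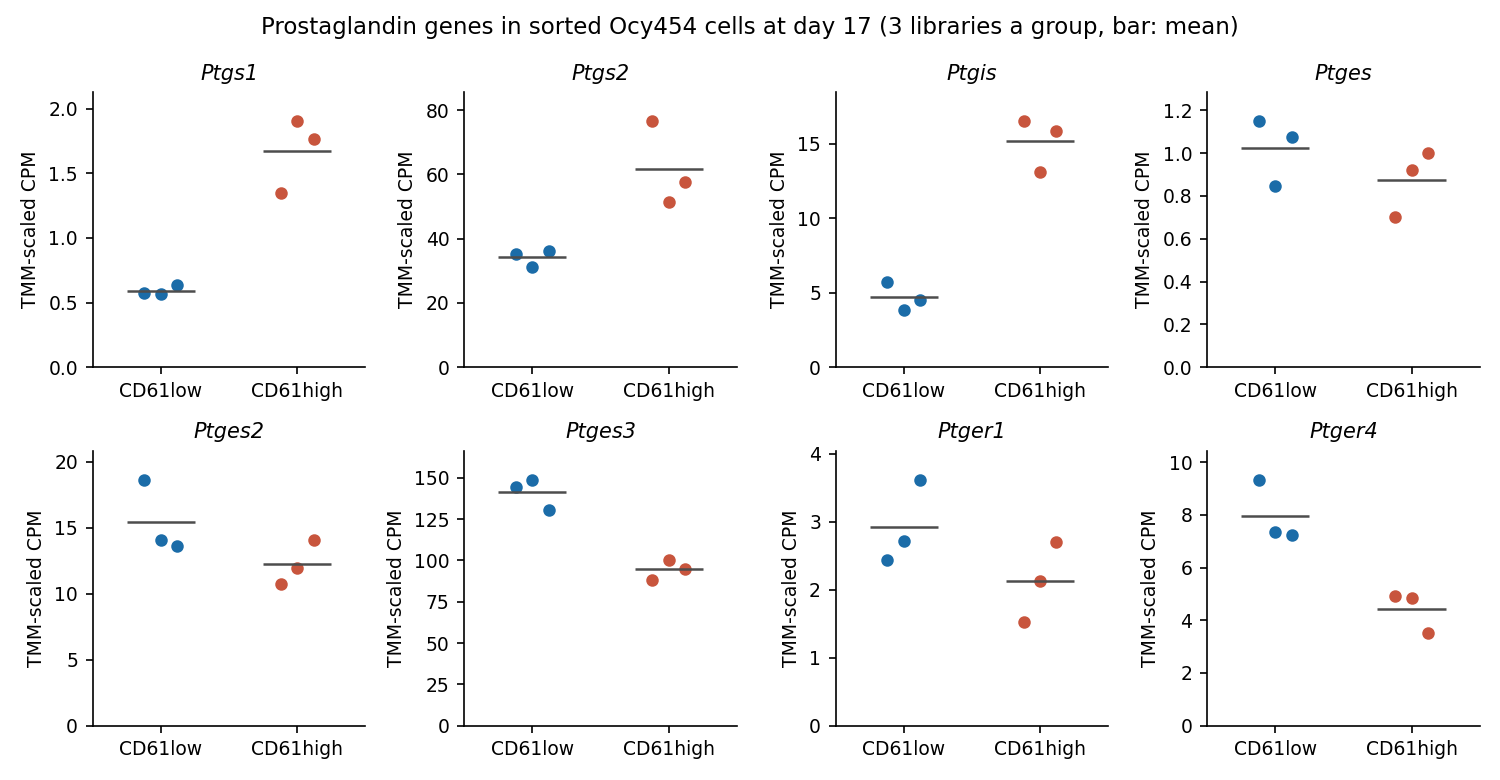
TMM-scaled CPM (linear axes from 0) of the 8 detected prostaglandin genes in CD61low (blue) and CD61high (red) cells; each point is 1 of 3 libraries and the bar is the mean. All CD61high libraries lie above all CD61low libraries for *Ptgs1*, *Ptgs2* and *Ptgis* and below them for *Ptges3* and *Ptger4*; *Ptges*, *Ptges2* and *Ptger1* overlap.

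*Ptger4* was at 9.33, 7.37 and 7.22 CPM in CD61low cells and at 4.93, 4.84 and 3.53 CPM in CD61high cells. The 3 CD61high libraries were all below the CD61low ones, with a mean 0.556 times as high (Log2FC -0.85, SE 0.18, edgeR adjusted p = 0.0033), short of the fold. Scaled by library size alone, the Log2FC was -1.15 and *Ptger4* was called, but the median of all genes then moved to -0.29. The adjusted p was 0.014 without replicate 1 of the CD61low cells, and also without replicate 3 of the CD61high cells. The 10 macrophage markers summed to 17.1 to 22.8 CPM in CD61low and 12.5 to 13.2 CPM in CD61high cells, nearly all of it in *Cd68* and *Cd14*, with *Adgre1*, *C1qa* and *C1qb* at 0, and their part in the level of *Ptger4* was not tested. The sign thus differs from the rise over days, where CD61-coding *Itgb3* also rose. The 2 experiments were quantified by different pipelines, so the difference between these effects was not tested.

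*Ptges3* was at 144, 149 and 130 CPM in CD61low cells and at 88.2, 100.5 and 94.9 CPM in CD61high cells. The groups did not overlap, and the Log2FC was -0.58 (SE 0.08, edgeR adjusted p = 1.9e-04), short of the fold. A processed copy listed as *Ptges3-ps* was assigned 5.41, 9.85 and 8.59 CPM in CD61low cells and 3.46, 1.32 and 0 CPM in CD61high cells, and reads shared with it cannot be placed with certainty. *Ptges2* had a Log2FC of -0.33 (SE 0.15, edgeR adjusted p = 0.098), with 13.6 to 18.6 CPM against 10.7 to 14.1 CPM. *Ptges* had a Log2FC of -0.22 (SE 0.30, edgeR adjusted p = 0.57), with 0.845 to 1.15 CPM against 0.704 to 1.00 CPM. The ranges of both genes overlapped between the groups.

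*Ptger1* was at 2.44, 2.72 and 3.61 CPM in CD61low cells and at 1.53, 2.13 and 2.71 CPM in CD61high cells, with overlapping groups and a Log2FC of -0.46 (SE 0.27, edgeR adjusted p = 0.17). The Log2FC was 0.32 with the length offset, so no direction can be given. Salmon gave the coding transcript *Ptger1-201* 57.0% of the summed counts in CD61low and 26.3% in CD61high cells, and the rest to transcripts without a coding sequence. These shares are model estimates without a test. The level of *Ptger1* in the sort was low against 32.6 to 54.6 CPM in the differentiation libraries. The days, the dissociation and the counting method differ together between the experiments and cannot be told apart.

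Per kilobase of listed gene length, the order of levels on day 1 was *Ptges3* (23.3 CPM per kb), *Ptges2* (12.5), *Ptger1* (7.91), *Ptgs2* (3.36), *Ptgis* (0.874), *Ptgs1* (0.250), *Ptger4* (0.220) and *Ptges* (0.160). The ranges of *Ptgs1* and *Ptger4* overlapped. The place of *Ptger1* is uncertain, since the strand setting of the counting is not given and its level was low in the sort. On day 14 the first place was held by *Ptgs2* (23.3 CPM per kb), above *Ptges3* (20.01), *Ptgis* (13.4), *Ptges2* (9.47) and *Ptger1* (6.69), with no overlap between neighbors. This order depends on the length used. Annotated exon bases differ from the listed lengths (*Ptgs2* 5123 against 4133, *Ptges3* 2228 against 2484, *Ptges2* 6835 against 2128). Per exon base, *Ptges3* would stand above *Ptgs2* on day 14, and *Ptger1* above *Ptges2*. On day 14 *Ptger4*, *Ptges* and *Ptgs1* were below 1 CPM per kb, while on day 7 *Ptgs1* had been at 1.302 CPM per kb. In the sorted libraries, in TPM, the length-scaled share of transcripts, *Ptges3* was the highest in both groups, at 138 to 157 TPM in CD61low and 72.3 to 80.7 TPM in CD61high cells. *Ptgs2* (15.2 to 18.1 TPM) overlapped *Ptges2* (14.2 to 24.4 TPM) in CD61low cells, while in CD61high cells *Ptgs2* stood second at 19.1 to 31.2 TPM. Most of the *Ptges2* level in CD61low cells was Salmon's estimate for *Ptges2-203*, a retained-intron transcript of 765 bases (9.52 to 19.2 TPM). The coding *Ptges2-201* was at 3.94 to 5.17 TPM there, below *Ptgs2* without overlap. Over all 6 sorted libraries, the mean of *Ptges3* (111 TPM) was above that of 92.2% of genes with any signal and that of *Ptgs2* (20.3 TPM) above 63.3%.

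**Figure D4:**
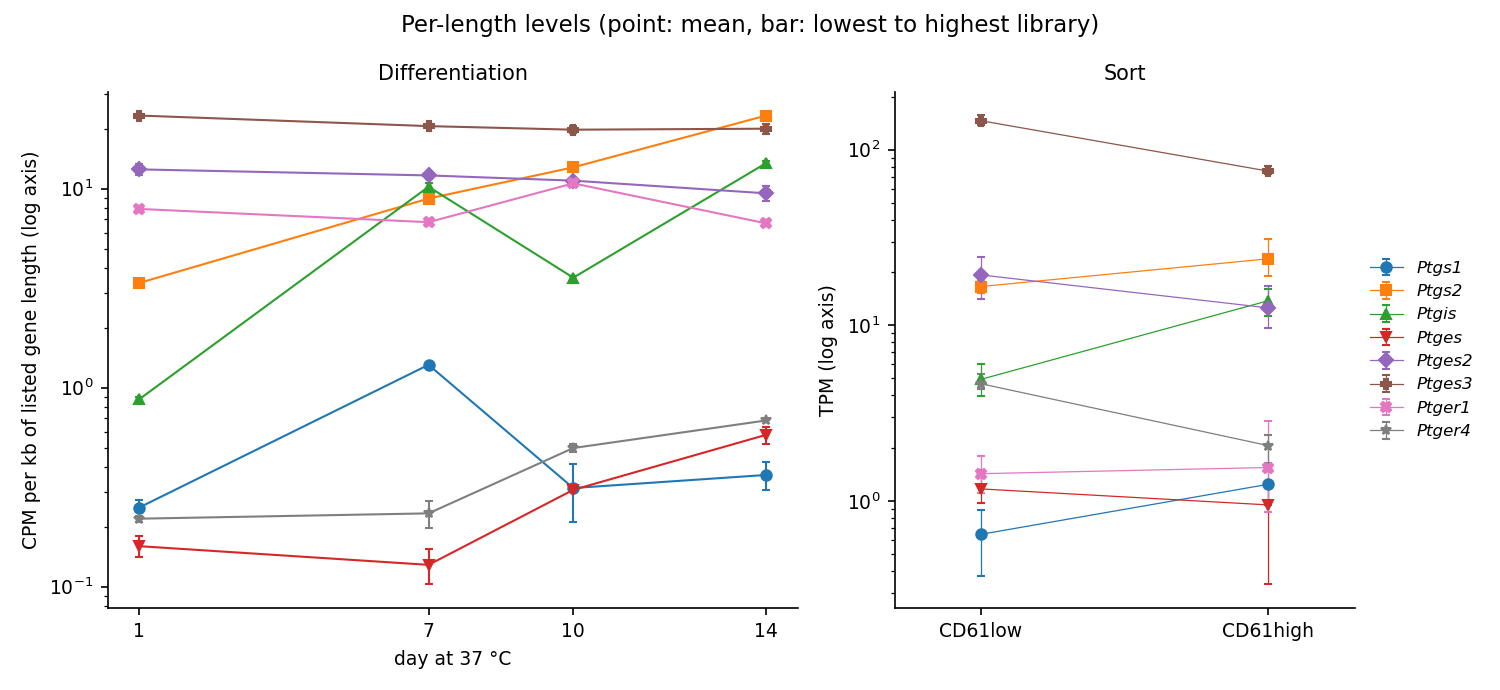
Per-length levels on log axes of the 8 detected genes, as CPM per kb of listed gene length by day (left) and as TPM in the sorted groups (right); points are means and bars run from the lowest to the highest library. *Ptgs2* goes from 3.36 CPM per kb on day 1 to 23.3 on day 14, past *Ptger1*, *Ptges2* and *Ptges3*, and *Ptges3* leads both sorted groups.

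The steps around these genes were described from lists of pathway genes. Among genes that release arachidonic acid, 8 of 17 were tested over differentiation, and on day 14 *Pla2g4a* and *Mgll* rose and none fell. *Pla2g4a*, the cytosolic phospholipase A2 that supplies the cyclooxygenases, was at 74.4 and 75.5 CPM on day 1 and at 186 and 203 CPM on day 14 (Log2FC 1.36, SE 0.04, limma adjusted p = 3.1e-20). *Mgll*, the lipase that frees arachidonate from an endocannabinoid, went from 13.9 and 12.2 CPM to 107 and 112 CPM (Log2FC 2.98, SE 0.06). In both genes the libraries of day 14 were far above those of day 1. The median Log2FC of the 8 genes was -0.28. In the sort, *Mgll* rose as well, from 22.3 to 25.8 CPM in CD61low cells to 124 to 125 CPM in CD61high cells (Log2FC 2.36, SE 0.08, edgeR adjusted p = 4.8e-08). *Pla2g4a* had a Log2FC of 0.51 there, short of the fold. *Pla2g4c*, another phospholipase of that family, fell in CD61high cells, from 3.12 to 3.52 CPM to 1.11 to 1.32 CPM (Log2FC -1.46, SE 0.22, edgeR adjusted p = 3.2e-04).

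The synthases of other prostanoids, the genes of prostaglandin inactivation and transport and the other prostanoid receptors had 2, 5 and 3 genes tested over differentiation and 3, 4 and 2 in the sort, and none was called on day 14 or in CD61high cells. *Ptgir*, the receptor for prostacyclin, the product of *Ptgis*, was at 0.427 to 0.774 CPM over differentiation and at most 0.412 CPM in the sort. *Ptgfr*, the receptor for PGF2α, was at 16.8 to 24.0 CPM over differentiation. *Hpgd*, the enzyme that inactivates prostaglandins, reached at most 0.233 CPM in any library, and the transporter *Slco2a1* at most 0.821 CPM. In the leukotriene and lipoxygenase branch, which competes for arachidonic acid, 3 of 13 genes were tested in each experiment. *Ltc4s*, the leukotriene C4 synthase, was called lower, from 4.19 and 3.23 CPM on day 1 to 0.670 and 0.981 CPM on day 14 (Log2FC -1.37, SE 0.16, limma adjusted p = 1.4e-08), but it passed the filter through day 1 alone, where it was high. *Alox5*, which starts that branch, was at or near 0. *Aloxe3*, an epidermal-type lipoxygenase, fell in CD61high cells, from 4.69 to 6.74 CPM to 2.23 to 2.71 CPM (Log2FC -1.18, SE 0.20, edgeR adjusted p = 8.5e-04).

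The genes whose course over the 8 differentiation libraries was most like that of each called gene were taken from those at a mean of at least 5 CPM that were tested in both experiments and had the same sign in the sort. They are descriptions over 8 libraries that share 4 days. For *Ptgs2* they were *Phc1* (r = 0.999), *Mxd1* and *Lbh*, out of 364 of 5111 genes with r above 0.95. For *Ptgis* they were *Gpi1* (r = 0.998), *Sun1* and *Evl*, out of 219 such genes. *Ptger4* was closest to *Usp33* (r = 0.991), *Zswim4* and *Tuft1*, and *Ptges* to *St13* (r = 0.987), *Chmp1b2* and *Fam221a*, out of 26 and 13 such genes. For *Ptgs1* only 3 genes had r above 0.95: *Nob1* (r = 0.954), *Pdgfa* and *Dlgap4*.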

How the data were processed

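RNA was measured in 14 Ocy454 libraries. For the differentiation table, the authors aligned reads with STAR, counted them per gene with HTSeq and deposited CPM. All of the CPM values were whole reads within 0.01, so depth is known. For the sorted libraries, the authors ran Salmon against GRCm39 and deposited estimated counts and TPM per transcript. These were summed here per gene with GENCODE M39 (115556 of 116747 transcripts matched, 99.3% to 99.4% of counts), and the sums rounded. HTSeq's strand setting and the versions of these tools are not given in the sources used here. The files list gene lengths, used for CPM per kb.

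Differentiation was tested with limma 3.58.1 (R 4.3.3; empirical Bayes with trend) on log2(CPM + 1), for genes above 1 CPM in at least 1 library, all 8 libraries in 1 fit. This scale understates the change of low genes. The sort was tested with edgeR 4.0.16 (quasi-likelihood, TMM) for genes that reached 5 normalized counts in each of the 6 libraries. P-values were adjusted by Benjamini-Hochberg over all genes tested, and the 5 contrasts between days share libraries. Both tests were also run on simulated counts, in which only genes with many reads were changed and the spread followed the same rule for every gene. Those runs do not cover genes with few counts. Counting-noise chi-square per gene between replicates was 2.35 to 6.74 (differentiation) and 7.17 to 20.8 (sort), so all libraries differed beyond counting noise. Alternatives were DESeq2 1.42.0, edgeR on the recovered reads, other scalings, filters, pseudocounts, a replicate block and leaving out each library.

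The 10 genes and the pathway and marker lists were chosen with earlier results of these data known. All 10 genes are named, and of a list every called gene, or the 3 highest and 3 lowest Log2FC where more than 6 were called; the comparisons described for marker and stress genes are day 14 against day 1 and the sort; genes of a list that were not called, *Jun* on day 7, *Cd68* and the overlapping genes were named after their values were seen, and a further gene is not reported here. Promoters of 8 of the 10 genes matched by symbol in the RefSeq table (GRCm38.p6); those of *Ptgis* and *Ptger1* are not shown here. Coordinates of genes are GRCm39.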

Additional observations from a re-analysis of the deposited data

How the results depend on the processing

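Of 576 values of the 8 tested genes under single alternatives, 559 kept their sign and their side of the threshold. With a pseudocount of 0.1, 552 genes were called from day 7 to day 10 (282 as reported) and 671 from day 10 to day 14 (377 as reported), and 4 of the 10 genes were called from day 7 to day 10, where 2 were reported: *Ptges* (1.14) and *Ptger4* (1.06) were added. With edgeR on the recovered reads these counts were 550, 731 and 4, and edgeR called 1643, 1858 and 2292 genes on days 7, 10 and 14 against day 1 (1159, 1334 and 1707 as reported). *Ptger4* on day 10 against day 1 was called under both, at 1.13 and 1.15. With a mean of at least 5 CPM, *Ptgs1*, *Ptges* and *Ptger4* were not tested, and 2 of the 10 genes were called on day 14 against day 1 and 1 from day 7 to day 10. With the length offset, 1 was called in the sort, and *Ptger1* turned to 0.32. Scaled by library size alone, 316 genes were called higher and 963 lower in the sort, against 585 and 528.

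Leaving out each library in turn gave 1696 to 1756 genes called on day 14 against day 1, 1167 to 1188 on day 7, 1343 to 1348 on day 10, 280 to 311 from day 7 to day 10, 357 to 419 from day 10 to day 14 and 980 to 1121 in the sort. Of the 10 genes, 3 to 4 were called on day 14 against day 1, and the other counts did not move. Values near 0 turned sign: *Ptger4* on day 7 against day 1 ran from -0.094 to 0.19, *Ptgs1* on day 10 against day 1 from -0.11 to 0.41 and from day 10 to day 14 from -0.12 to 0.40, and *Ptges3* from day 7 to day 10 from -0.12 to 0.0014 and from day 10 to day 14 from -0.067 to 0.098. The causes were not tested.

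Same-numbered samples showed no clear pairing (correlation of their deviations -0.025 to 0.061 over days, -0.32 to 0.22 in the sort). Differently numbered samples of the sort ran from -0.41 to 0.47. CD61low and CD61high replicates may still share a group of cells. A replicate block gave 1707 genes on day 14 against day 1 and 1083 in the sort (1113 as reported), and changed no call of the 10 genes. Depth limits *Ptgs1* in the sort, *Ptges*, *Ptger2* and *Ptger3*.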

Other observations

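The values of some genes next to or resembling the prostaglandin genes are given here. *Ptgs2os*, an antisense transcript that shares 9.29% of the exon bases of *Ptgs2*, was at 4.58 and 4.77 CPM on day 1 and at 5.13 and 4.58 CPM on day 14 (Log2FC 0.04, SE 0.11, limma adjusted p = 0.73), while *Ptgs2* rose. *Ptges3l*, a gene with a p23-like product, rose over the days, from 1.33 and 1.35 CPM on day 1 to 4.87 and 5.92 CPM on day 14 (Log2FC 1.45, SE 0.12, limma adjusted p = 5.4e-11). It also rose in the sort, from 3.97, 2.06 and 1.95 CPM in CD61low cells to 7.10, 5.12 and 6.71 CPM in CD61high cells (Log2FC 1.24, SE 0.27, edgeR adjusted p = 0.0036), where *Ptges3* had a Log2FC of -0.58. *Ttc33*, which shares 3.44% of the exon bases of *Ptger4* on the opposite strand, had a Log2FC of 0.36 on day 14 and -0.09 in the sort, neither past the fold. *1110018N20Rik*, which shares 4.36% of the exon bases of *Ptgis* on the opposite strand, was at 0.0886 and 0.157 CPM on day 1 and at 1.28 and 1.45 CPM on day 14. These genes were singled out after their values were seen.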
